A study of Mus musculus with 12 samples.

Results

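The first postnatal week of the mouse cerebellum was examined by comparing GFP-sorted cells at postnatal day 7 (P7) with those at postnatal day 1 (P1), which make up 6 of the 12 RNA sequencing libraries of the series. Every gene was eligible, and a gene was tested when its normalized count reached 10 in at least 3 of the 12 libraries. This left 15464 of the 24421 entries of the table, and 20205 entries had a read in any library. All groups came from Aldh1l1-GFP reporter mice on the C57/BL6J background, in which the promoter of Aldh1l1, a folate enzyme enriched in astrocytes, drives GFP, so that any other cell in which this promoter is active could pass the gate. The cerebellum was taken at P1, P7, P14 or P28 and dissociated, the GFP-positive cells were collected by flow cytometry, and 3 libraries were made per age. Mice of both sexes were used, and no treatment or allele besides the reporter is given for any group. The labels do not say whether replicates came from separate animals, so the p-values measure the spread between these libraries, which may be technical. The account below turns to processes other than the astrocyte signature, myelin, axon guidance and synaptic genes.

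In this week the cerebellar cortex is still being built. Granule neuron precursors divide in the outermost layer in response to Sonic hedgehog, which Purkinje cells secrete, and then exit the cycle and migrate inward along the fibres of Bergmann glia. Progenitors of the prospective white matter give rise to astrocytes and to GABAergic interneurons, and immature astrocytes still divide. Glial progenitors are held in that state by Notch, FGF and Sox factors, while proneural factors of the basic helix-loop-helix (bHLH) family start neuronal programs. In bulk RNA of sorted cells, fewer cells of a type and less RNA per cell cannot be told apart.

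The 6 libraries held 6399499 to 14733985 reads on genes, and P7 replicate 2 was the shallowest. Xist, transcribed from the inactive X chromosome of females, stood at 14.4 to 28.9 normalized counts in the 3 P1 libraries and at 90.3 in P7 replicate 2, against 24667 in P7 replicate 1 and 25471 in P7 replicate 3. The Y-linked Ddx3y showed the opposite order, with 624 to 837 at P1 and 2.39, 709 and 3.88 at P7. The P1 libraries and P7 replicate 2 therefore read as male and the other two P7 libraries as female, so sex and age were partly confounded in this comparison. Log2 values of the P1 libraries correlated at 0.928 to 0.951 with each other across genes, and those of the P7 libraries at 0.95 to 0.965, and genes are not independent replicates.

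The label of the sorted cells was checked against marker lists. The summed level of 10 astrocyte markers was 59206 to 73091 at P1 and 53531, 29244 and 49448 in P7 replicates 1, 2 and 3, with none of them at 0. Markers of other cells were also present. The sum of 10 pan-neuronal markers was 8522 to 15845 at P1 and 22999 to 29058 at P7, and that of 13 GABAergic interneuron lineage markers 1396 to 6574 and 7724 to 16634. The sum of 15 choroid plexus markers, most of it from the transthyretin gene Ttr, was 1387 to 3290 at P1 and 50145 to 132329 at P7. P1 replicate 2 and P7 replicate 2 stood apart with the highest endothelial sums of their ages, 4622 and 13479, against 1013 to 1530 and 2315 to 3419 in the others. They also had the highest meningeal fibroblast sums, 44272 and 24233. Red blood cell markers were nearly absent, with 1 of 11 reaching the filter.

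**Figure D1:**
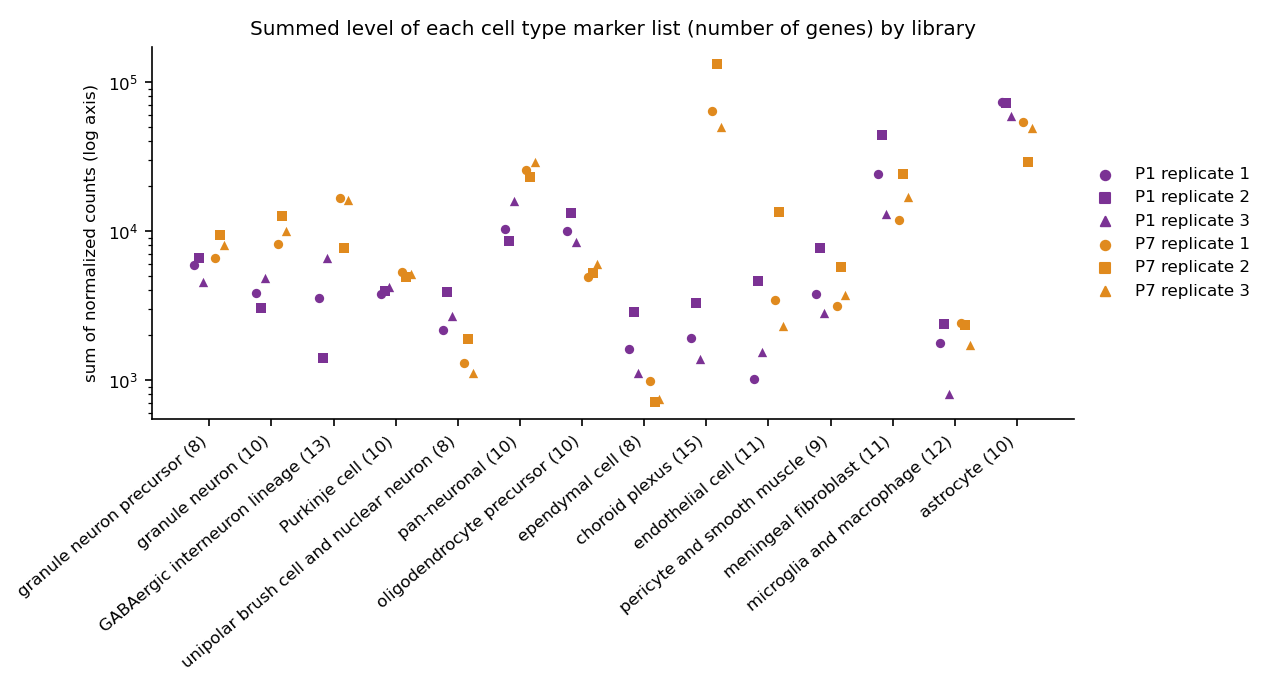
Sum of normalized counts (log axis) of each cell type marker list, with the number of genes in the list, in the 3 P1 and 3 P7 libraries, 1 symbol per library. Choroid plexus sums and most neuronal sums were higher in the P7 libraries. Astrocyte and oligodendrocyte precursor sums were lower, as were those of unipolar brush cells and nuclear neurons. The replicates numbered 2 had the highest endothelial and meningeal sums of their age.

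By limma on log2(normalized count + 1) with a Benjamini-Hochberg adjusted p under 0.05, 536 genes rose from P1 to P7 (3.47% of those tested) and 655 fell (4.24%), together 7.7%. Of these 1191 genes 1185 had no overlap between the 3 P1 and the 3 P7 libraries, a background that was itself wide, since 20.1% of all genes tested were higher and 18.2% lower without overlap. Changes of over 2 on the log2 scale were 196 rises and 129 falls, with medians of 1.59 among those that rose and -1.32 among those that fell. Over all genes tested the median log2 fold change was 0.037, with 52.2% of genes above 0 and 47.8% below. The counts depended on the libraries, with 276 to 494 rising and 363 to 526 falling genes when 1 of the 6 was left out, and P7 replicate 2 as the only P7 library gave 137 and 301. Adding sex, read from Xist and Ddx3y, as a term left 428 and 569. Of 32 counts of exactly 1 rising or falling gene over all process and marker lists, 20 were 0 in at least 1 fit without 1 of the 6 libraries. Of the genes given below with a fold change, each that passed in the fit of all libraries also passed in every fit that left out 1 of the 12 libraries, and moved by less than 1.5-fold there, unless stated otherwise. Of 107 genes named here that passed, Hhip and Sufu not counted, 103 did with sex as a term, all but Hmga2, Dio2, Foxj1 and Per1. Rising and falling genes named by rule had to lack overlap between the P1 and P7 libraries, so separate groups follow from that choice. With P7 replicate 2 as the only P7 library all 107 kept their direction, which was fixed in advance for genes without overlap.

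**Figure D2:**
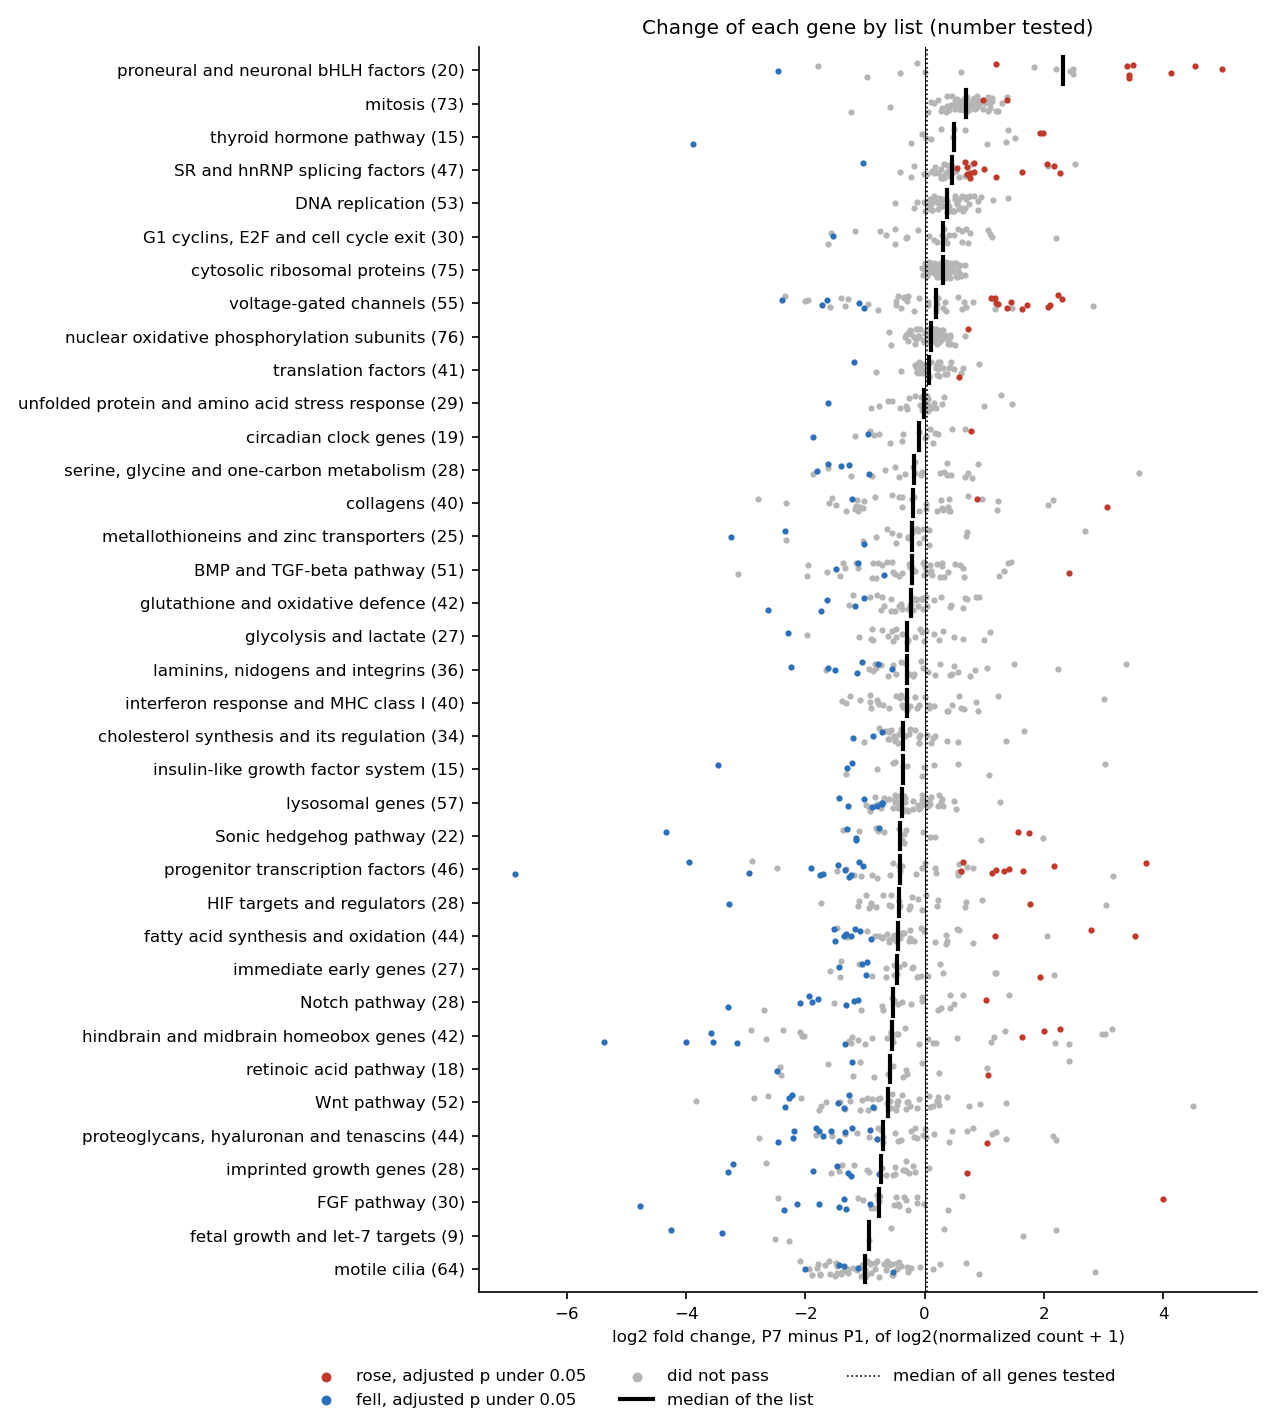
Log2 fold change, P7 minus P1, of each tested member of each process list (points, coloured by whether the gene passed at an adjusted p under 0.05), with the median of the list (bar) and the median of all genes tested (dotted line, 0.037). Neuronal bHLH factors had the highest median, 2.32, and motile cilia genes the lowest, -0.99, which was -0.48 with sex as a term. Ribosomal and replication genes formed narrow groups slightly above 0.

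Of 9 tested genes of fetal growth that include targets of the let-7 microRNA, 0 rose and 2 fell, with a median log2 fold change of -0.93. The falling count was 1 without any of the P1 libraries, without P7 replicate 2 or with sex as a term. Igf2bp1, which binds and stabilizes growth-promoting mRNAs in the embryo (chromosome 11, 95957163 to 96005940), had 328, 336 and 438 normalized counts at P1 and 24.7, 13.1 and 18.6 at P7. The groups were far apart, a 19.5-fold difference of means that corresponded to a log2 fold change of -4.25 ± 0.87 (SE, limma adjusted p = 0.00722). Its means were lower still at P14 and P28, at 2.12 and 0.487. Hmga2, a chromatin protein of fetal neural stem cells, stood at 196, 168 and 266 at P1 and 31.1, 6.54 and 30.2 at P7. Its change of -3.40 ± 0.85 (adjusted p = 0.0233) lost its call without any of the P1 libraries or without P7 replicate 2, at an adjusted p of 0.0650 to 0.136.

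Imprinted growth genes moved mostly the same way: 7 of 28 fell and 1 rose, 26 of 28 had a log2 fold change below 0, and the median was -0.74. With 1 of the 6 libraries left out, 2 to 6 fell, and the count moved by over 1.5 times without P1 replicate 1, P1 replicate 2, P7 replicate 1 or P7 replicate 3, and with sex as a term, which left 4. Nnat, the neuronatin proteolipid gene of the developing brain on chromosome 2, had 10432, 15488 and 9191 normalized counts at P1 against 3910, 1830 and 4235 at P7 (log2 fold change -1.87 ± 0.32, adjusted p = 0.00228). Peg10, derived from a retrotransposon and expressed from the paternal allele, had 1844, 978 and 1683 at P1 against 522, 474 and 587 at P7 (-1.46 ± 0.27, adjusted p = 0.00355). Both genes kept separate groups, and P7 replicate 2 was lowest for each. Peg10 was named after its values were seen.

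The H19 long noncoding RNA had 1679, 4320 and 893 normalized counts at P1 and 98.7, 378 and 215 at P7. Its change of -3.21 ± 0.67 (adjusted p = 0.0084) ranged from -3.74 to -2.61 without single libraries and did not pass without P1 replicate 2 (the library with the highest value) or P7 replicate 1. Its neighbour Igf2, the fetal insulin-like growth factor, did not pass, with 14193, 36858 and 8878 at P1 and 9875, 12130 and 13828 at P7 (adjusted p = 0.537). The groups of Igf2 overlapped, and P1 replicate 2 was again the highest, as it was for the meningeal markers. Their part in the values was not tested. In the insulin-like growth factor system 3 of 15 genes fell and 0 rose, while 1 fell without P1 replicate 2 or P7 replicate 2, and with sex as a term 1 fell and 2 rose. Irs4, an insulin receptor substrate, had 74.4, 44.3 and 87.8 at P1, 3.98, 5.24 and 6.2 at P7, and was listed at 0 in all libraries of P14 and P28 (-3.47 ± 0.71, adjusted p = 0.00745).

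FGF pathway genes were mostly lower at P7. Of 30 tested genes, 8 fell and 1 rose, 27 had a log2 fold change below 0, the median was -0.77, and 6 or 7 fell with 1 of the 6 libraries left out. The ligand Fgf15, secreted by progenitors of the developing brain, stood at 173, 47.9 and 147 normalized counts at P1 and at 5.57, 2.62 and 1.55 at P7 (log2 fold change -4.78 ± 0.84, adjusted p = 0.00286). Of the receptors, Fgfr3, which marks astrocyte progenitors (chromosome 5, 33721674 to 33737068), had 4043, 2394 and 2258 at P1 and 854, 386 and 485 at P7, a 5.04-fold difference (-2.36 ± 0.27, adjusted p = 0.000131). Fgfr1 went from 3192, 2719 and 2715 to 1201, 849 and 1174 (-1.43 ± 0.22, adjusted p = 0.00121). For each of these genes the lowest P1 library lay above the highest P7 library.

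The genes that fell included factors downstream of FGF receptors. Etv5, an ETS factor induced by FGF receptors, had 2516, 1850 and 2095 at P1 and 668, 467 and 771 at P7 (-1.78 ± 0.20, adjusted p = 9.94e-05), and its relative Etv1 had 1150, 925 and 801 against 347, 389 and 398. Spred1, an inhibitor of the same cascade, fell by 0.92 on the log2 scale, with 4060, 4980 and 4491 against 2605, 2158 and 2403. Some members stood higher again at later ages. Fgfr3 had a mean of 2640 at P14 and 4455 at P28, and Etv5 1955 and 3678, both above their P7 levels. Fgf9, a ligand made by neurons and glia, went the other way, from 8, 0.714 and 6.82 to 60.5, 128 and 61.2 (adjusted p = 0.00553). Its log2 fold change moved from 4.0 to 3.24 without P1 replicate 2, in which 1 read was counted. Etv5 was named after its values were seen.

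In the Notch pathway, through which neighbouring progenitors restrain each other from differentiating, 8 of 28 genes fell and 1 rose, with a median of -0.53. The receptor Notch1 (chromosome 2, 26457903 to 26516663) had 6568, 3530 and 4270 normalized counts at P1 and 1269, 1165 and 1167 at P7. The P7 libraries were close to each other and well below every P1 library, a 3.99-fold difference (-1.95 ± 0.20, adjusted p = 7.44e-05). Notch3, the receptor also known from vascular smooth muscle, went from 1616, 1170 and 981 to 483, 277 and 329 (-1.80 ± 0.30, adjusted p = 0.00186). Lfng, a glycosyltransferase that modifies Notch receptors, went from 2086, 2628 and 2428 to 821, 325 and 651 (-2.08 ± 0.28, adjusted p = 0.000459). Dner, a Notch ligand of Purkinje cells, fell by 1.32 and the coactivator Maml2 by 1.19 on the log2 scale. The number that fell was 5 to 7 with 1 of the 6 libraries left out, lower by over 1.5 times without P1 replicate 1 or P7 replicate 2. Notch3 was named after its values were seen.

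Of 52 Wnt pathway genes, 7 fell and 0 rose, 40 were below 0, and the median was -0.61. The count was 4 to 6 with 1 of the 6 libraries left out, lower by over 1.5 times without P1 replicate 1, P1 replicate 3, P7 replicate 2 or P7 replicate 3, and 3 with sex as a term. The ligand Wnt7b had 564, 435 and 393 at P1 and 143, 53.7 and 94.6 at P7 (-2.34 ± 0.45, adjusted p = 0.00468). The nuclear effector Tcf7l2, named after its values were seen, had 2470, 2403 and 1496 against 901, 758 and 927 (-1.27 ± 0.26, adjusted p = 0.00652). Among 51 genes of the BMP and TGF-beta pathway 3 fell and 1 rose. That is near the background. With 1 of the 6 libraries left out 0 to 3 fell, with 0 without P7 replicate 1 or P7 replicate 2, and the count moved by over 1.5 times also without P1 replicate 1, P1 replicate 2 or P7 replicate 3. With sex as a term 5 fell and 3 rose.

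Of 22 Sonic hedgehog pathway genes, 5 fell and 2 rose, with a median of -0.41. With 1 of the 6 libraries left out, 2 to 4 fell and 0 or 1 rose. The counts moved by over 1.5 times without each of the 6 libraries, except that the falling count did not without P1 replicate 3, and with sex as a term 0 rose. The genes that rose were Hhip, by 1.56 on the log2 scale, and Sufu, by 1.76 (limma adjusted p = 0.045 and 0.0333). Sufu did not pass without any one of the 6 libraries. Hhip did not pass without P1 replicate 2, any P7 library, P14 replicates 1 or 2, or P28 replicate 1. Its change went to 0.889 without P1 replicate 2. The ligand Shh had 24, 14.3 and 20.4 normalized counts in the P1 libraries and no read in any P7 library (chromosome 5, 28456815 to 28467256). Set against 3 reads per P7 library, it was at least 6.80-fold lower (adjusted p = 0.00224). Ptch1, the receptor whose transcription the pathway itself induces, had 4126, 2424 and 3149 at P1 and 1574, 1239 and 1497 at P7 (-1.14 ± 0.20, adjusted p = 0.00238). Its mean was 4072 at P14 and 9542 at P28, so P7 was the lowest of the 4 ages. Purkinje cell markers, from the cells that supply the ligand in the cerebellum, summed to 3770 to 4202 at P1 and 4924 to 5289 at P7. They did not move as a group, with 2 of 9 tested rising, 1 falling, 4 below 0 and a median of 0.06. With 1 of the 6 libraries left out 0 or 1 rose and 0 or 1 fell.

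Retinoic acid and thyroid hormone genes were fewer. Cyp26b1, which degrades retinoic acid, had 3039, 1054 and 3426 at P1 and 584, 222 and 493 at P7 (-2.47 ± 0.41, adjusted p = 0.0019). It was among 2 of 18 retinoic acid genes that fell, and 1 rose. Without any one of the 6 libraries 1 fell, and without P1 replicate 1 or with sex as a term 0 rose. In the thyroid hormone list 2 of 15 genes rose and 1 fell, with a median of 0.49. The rising count was 1 without P1 replicate 1 or P7 replicate 1 and 4 with sex as a term, and the falling count was 0 without any of the 6 libraries but P7 replicate 1. Thrsp, a lipogenic gene induced by thyroid hormone, had 56, 48.6 and 70.4 at P1, 256, 168 and 261 at P7, and means of 1380 at P14 and 1147 at P28 (1.94 ± 0.26, adjusted p = 0.000364). Dio2, the deiodinase with which astrocytes activate the hormone, rose by 1.99 on the log2 scale, but not without P1 replicate 1 or P7 replicate 1 (adjusted p 0.0666 and 0.0609), and its change ranged from 1.6 to 2.64 without single libraries, moving by over 1.5-fold also without P1 replicate 2.

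**Figure D3:**
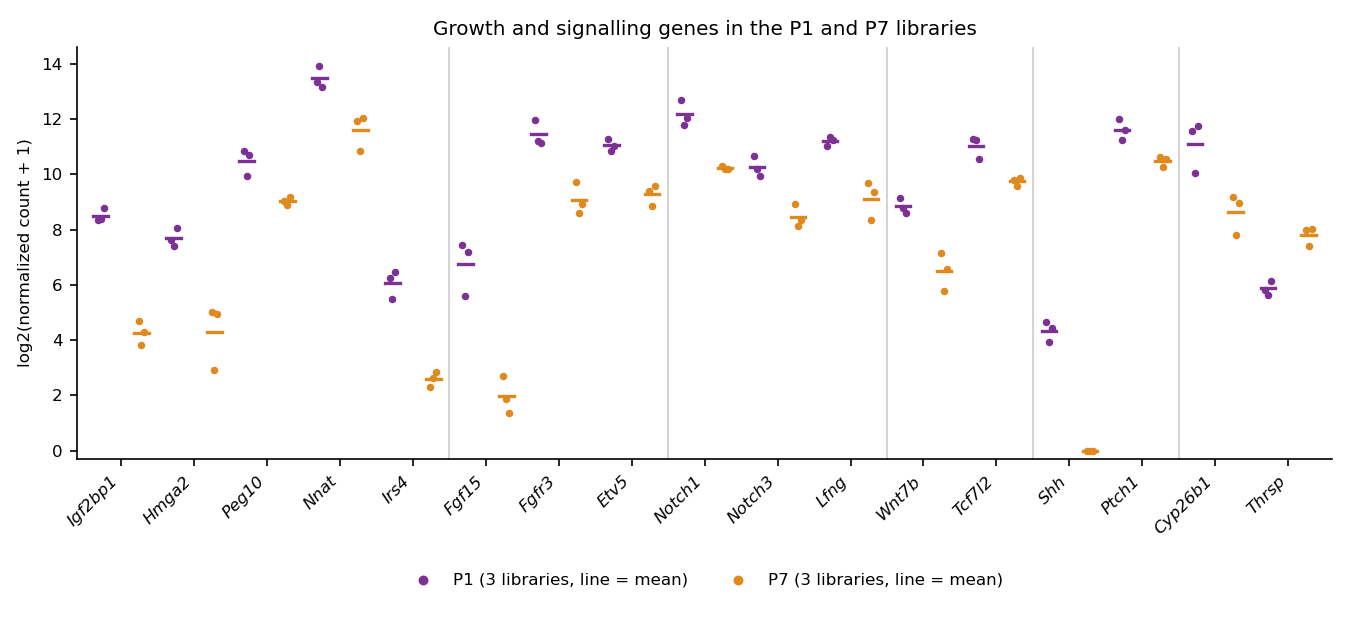
Log2(normalized count + 1) of growth and signalling genes in the 3 P1 and 3 P7 libraries (points, line at the mean), in blocks for fetal growth, FGF, Notch, Wnt, hedgehog, and retinoic acid and thyroid hormone. In every block but the last all P7 points lie below all P1 points, and Thrsp is the gene with the opposite order. Genes that rose in the lists of the other blocks, such as Fgf9, Hhip and Sufu, are not plotted. The shared direction of those blocks follows from that choice. A lack of overlap was a condition for rising and falling genes named by rule.

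Of 42 tested homeobox genes of the hindbrain and midbrain, which mark positions along the neural tube, 6 fell and 3 rose, and the median was -0.55. The falling count was 2 or 3 in each fit without 1 of the 6 libraries, and 0 to 4 rose, with 0 without P7 replicate 3 and a move of over 1.5 times also without P1 replicate 2 or P7 replicate 2. With sex as a term 5 fell and 0 rose. Gbx2, which sets the boundary between midbrain and hindbrain, had 175, 124 and 289 at P1 and 22.3, 6.54 and 7.75 at P7 (-4.0 ± 0.78, adjusted p = 0.00536). Dbx1, of neural tube progenitors, had 45.5, 56.4 and 59.8 at P1, where 232 reads were counted in all, and 0, 1.31 and 0 at P7, which is 1 read. The ratio of P7 to P1 had a counting interval of 0.000204 to 0.0455 (adjusted p = 0.000463). Of 30 Hox genes, which mark levels of the neural tube behind the cerebellum, 3 reached the filter.

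Among 46 transcription factors of neural and glial progenitors, 12 fell and 9 rose, and 8 to 11 and 6 to 8 did so with 1 of the 6 libraries left out. The fall included Sox factors that hold cells in a progenitor or glial state. Sox2, named after its values were seen, had 1111, 1016 and 1079 at P1 and 487, 182 and 401 at P7 (-1.70 ± 0.35, adjusted p = 0.00709). Sox21 had 1265, 1352 and 1267 against 274, 95.5 and 178 (-2.94 ± 0.38, adjusted p = 0.000316). Sox9, which specifies glia, fell by 1.33, Sox6 by 1.27 and Glis3 by 1.90. Olig1 of the oligodendrocyte lineage, counted with the bHLH factors, had 2027, 2446 and 1542 against 424, 240 and 444 (-2.46 ± 0.26, adjusted p = 7.68e-05). Oligodendrocyte precursor markers, of which Olig1 and Pdgfra are members, summed to 8434 to 13221 at P1 and 4870 to 6024 at P7. The list was mixed, since of its 10 markers 3 fell and 0 rose, while 4 had a log2 fold change above 0 (median -0.69). Pdgfra, the receptor for platelet-derived growth factor on these precursors, went from 3005, 4772 and 3161 to 1276, 1349 and 1219 (-1.48 ± 0.25, adjusted p = 0.00224), and is also the 1 of 11 meningeal fibroblast markers that fell. Sall3, a zinc finger factor in no list, had 2725, 3133 and 2296 against 387, 139 and 246, and went on to means of 148 at P14 and 44.9 at P28 (-3.51 ± 0.73, adjusted p = 0.00812).

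The factors that rose are those of differentiating neurons and of the nuclear factor I family. Nfib, which takes part in glial and granule neuron differentiation, had 10228, 6935 and 11986 at P1 and 26466, 22490 and 27119 at P7 (1.42 ± 0.17, adjusted p = 0.000213). Nfix had 7676, 5795 and 8085 against 19589, 11033 and 17718 (1.14 ± 0.21, adjusted p = 0.00422). Zic1, a zinc finger factor of granule neurons and other cerebellar cells, had 2945, 1828 and 3540 against 7535, 5586 and 7275 and was named after its values were seen (1.33 ± 0.21, adjusted p = 0.00156). Sox11, of immature neurons, had 2601, 1386 and 3692 against 12478, 8106 and 12051 (2.17 ± 0.33, adjusted p = 0.00113). Zbtb18, a repressor needed for neuronal differentiation, had 1225, 474 and 1303 against 3086, 2443 and 3131. In each of these genes P1 replicate 2 was the lowest P1 library and P7 replicate 2 the lowest P7 library, as for the GABAergic lineage markers, and in each the groups stayed apart. Sox11 was lower at later ages than at P1, with means of 348 at P14 and 145 at P28. Nfib had means of 5169 and 5523 there.

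Proneural and neuronal bHLH factors, with their partners, had the highest median of all process lists, 2.32 for 20 genes. Of these 8 rose and 1 fell (Olig1). With 1 of the 6 libraries left out 6 to 9 rose, with medians of 1.00 to 3.10. Neurod1, which drives granule neuron differentiation (chromosome 2, 79452521 to 79456751), had 59.1, 26.4 and 126 normalized counts at P1 and 1413, 2519 and 1853 at P7. The highest P1 library was far below the lowest P7 library, a 27.3-fold difference (4.98 ± 0.47, adjusted p = 3.25e-05). Tcf4, the widely expressed bHLH partner, had 10176, 7055 and 9741 against 22257, 17444 and 21478 (1.19 ± 0.16, adjusted p = 0.000349). Neurod2, of maturing neurons, had 281, 41.4 and 658 against 2452, 1551 and 2625 (3.44 ± 0.67, adjusted p = 0.00546). Nhlh2, named after its values were seen, had 202, 39.3 and 469 against 1907, 1315 and 1901 (3.43 ± 0.73, adjusted p = 0.00948). Insm1, a zinc finger factor of newborn neurons counted with this list, had 33.8, 5.72 and 71.2 against 461, 479 and 405 (4.13 ± 0.84, adjusted p = 0.00696). The size of the last 3 changes rested on the P1 libraries, which spread widely with replicate 2 lowest. Without single libraries it ranged from 2.32 to 4.30 for Neurod2, from 2.45 to 4.22 for Nhlh2 and from 3.16 to 4.87 for Insm1, with P1 replicate 2 and P1 replicate 3 as the libraries that moved it by over 1.5-fold.

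Neuronal bHLH factors bind the E-box, here searched as CAGCTG or CAGATG on both strands, and several of them act on each other's genes. To show the sequence at the start of such genes, the promoters of Neurod2 and Nhlh2 are printed from the RefSeq annotation of GRCm38.p6, from 250 bases before to 50 bases after the start site, with E-boxes in capitals. The Neurod2 window is chr11:98329596-98329895 on the minus strand with 1 match, and the Nhlh2 window is chr3:102009895-102010194 on the plus strand with 2. Of the 8 genes that rose, 5 had a promoter entry and 3 of these held an E-box, and 30.43% of all 27025 promoters did.
Neurod2: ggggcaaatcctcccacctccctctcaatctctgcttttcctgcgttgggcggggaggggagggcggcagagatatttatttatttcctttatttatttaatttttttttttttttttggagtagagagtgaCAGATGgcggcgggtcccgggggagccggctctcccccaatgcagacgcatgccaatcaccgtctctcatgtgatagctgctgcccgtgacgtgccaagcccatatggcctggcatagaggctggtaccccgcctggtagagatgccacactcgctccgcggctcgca
Nhlh2: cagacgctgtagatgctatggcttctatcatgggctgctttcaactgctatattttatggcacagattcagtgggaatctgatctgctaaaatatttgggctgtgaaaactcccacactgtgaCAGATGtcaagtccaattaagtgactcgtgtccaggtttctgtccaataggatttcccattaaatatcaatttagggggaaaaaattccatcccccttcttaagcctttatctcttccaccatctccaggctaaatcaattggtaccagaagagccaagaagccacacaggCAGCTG

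RNA-binding proteins were also mostly higher at P7. Of 47 genes of the SR, hnRNP and neuronal splicing regulators 14 rose and 1 fell, 42 were above 0, and the median was 0.46. The rising count was 5 to 14 with 1 of the 6 libraries left out, and lower by over 1.5 times without any of them but P1 replicate 3. Elavl3, a stabilizer of neuronal mRNAs, had 609, 652 and 1349 at P1 and 3745, 3123 and 4262 at P7 (2.18 ± 0.25, adjusted p = 0.000145), and Elavl4 had 396, 187 and 638 against 1402, 1343 and 1803 (2.05 ± 0.35, adjusted p = 0.00238). Rbfox3, the NeuN splicing regulator of mature neurons, had 225, 256 and 401 against 1022, 1772 and 1453 (2.27 ± 0.26, adjusted p = 0.000133). A general hnRNP protein gene, Hnrnpa2b1, rose less, with 3605, 3810 and 4276 against 6714, 6193 and 6810 (0.76 ± 0.14, adjusted p = 0.00356), and was named after its values were seen. The gene that fell was Qk, the Quaking protein of glia, with 19565, 15155 and 16407 against 9539, 7100 and 8512 and means of 14545 and 18590 at P14 and P28 (-1.03 ± 0.15, adjusted p = 0.000677).

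Most neuronal marker lists moved with these genes. Unipolar brush cell and nuclear neuron markers did not, with sums of 2171 to 3879 at P1 and 1104 to 1894 at P7. Granule neuron markers rose in 6 of 10 and fell in 1, and their sums went from between 3042 and 4827 to between 8221 and 12613, with Gabra6, a GABA receptor subunit of mature granule neurons, at 0 in all P1 libraries. Of the 13 GABAergic lineage markers 12 were higher without overlap, against 20.1% of all genes tested. Pan-neuronal markers rose in 6 of 10 and GABAergic lineage markers in 2 of 13. The GABAergic count moved by over 1.5 times without each of the 6 libraries, to 7 without P1 replicate 3 and to 1 without any other. Neurod1, Neurod2, Rbfox3, Elavl3 and Elavl4 are themselves among these markers. The part of neuronal RNA in the rise of the bHLH factors, splicing regulators and channels was not tested.

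**Figure D4:**
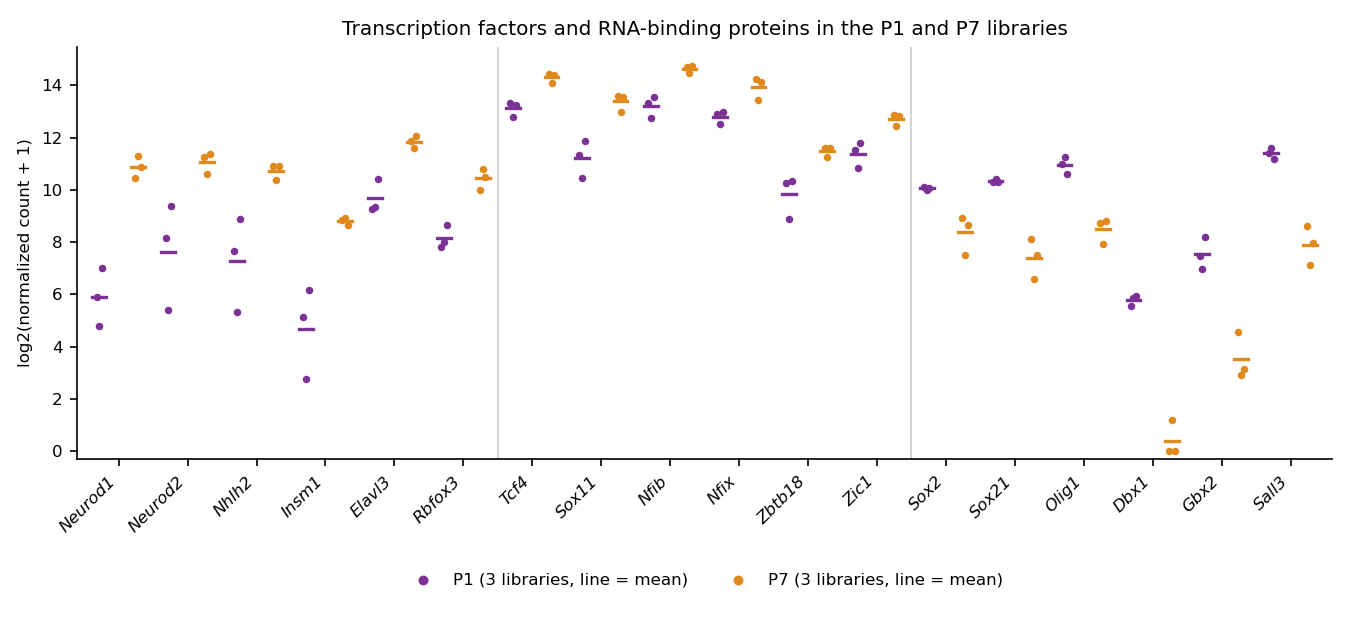
Log2(normalized count + 1) of transcription factors and RNA-binding proteins in the 3 P1 and 3 P7 libraries (points, line at the mean), in blocks for neuronal factors, further factors that rose, some of them also of neurons, and progenitor factors that fell. P1 points of Neurod2, Nhlh2 and Insm1 spread widely. Rising and falling genes named by rule had to lack overlap, so the separation of their P1 and P7 points follows from that choice.

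Most proliferation genes were slightly higher at P7, but few passed the test. Of 53 DNA replication genes 0 rose and 0 fell by limma, by DESeq2 and by edgeR, while the limma fit of the 6 libraries alone called 5 rising. By limma 2 were higher at an unadjusted p under 0.05, although 49 were above 0 and the median was 0.38. Of 73 mitosis genes 71 were above 0, and 52 were higher without overlap, against 20.1% of all genes tested. The median was 0.70, ranging from 0.53 to 0.85 with 1 of the 6 libraries left out. Of the 73 genes 2 rose, with 0 to 2 when 1 of the 6 libraries was left out (fewer by over 1.5 times without any of them but P1 replicate 3). In the fit of the 6 libraries alone 26 did. Top2a, the topoisomerase of dividing cells, had 3880, 2733 and 4223 normalized counts at P1 and 6292, 8052 and 6891 at P7, with no overlap (0.99 ± 0.26, adjusted p = 0.03). Its call was lost, at an adjusted p of 0.0795 to 0.168, without any of the 6 libraries but P1 replicate 3. Anln, which acts in cytokinesis, rose by 1.38 on the log2 scale and did not pass without P1 replicate 2 or P7 replicate 2. Mki67, the Ki-67 proliferation antigen, had 8296, 3951 and 7866 at P1 and 9915, 13819 and 10897 at P7 and did not pass (adjusted p = 0.247). Means at P14 and P28 were 318 and 5.27 for Top2a and 394 and 19.7 for Mki67. Those of Anln were 2800 and 901, against 389 at P1 and 992 at P7, so its highest mean was at P14. Markers of granule neuron precursors, which divide at these ages, summed to 4541 to 6560 at P1 and 6596 to 9354 at P7. Their part was not tested.

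Mitotic genes share sequence features at their start sites that the grouping did not use. The CCAAT box was found in 45 of the 60 mitosis genes with a promoter entry (75%) and the cell cycle homology region, searched as TTTGAA or TTCGAA, in 44 (73.33%), both strands counted. Among all 27025 promoters the shares were 38.02% and 19.49%. Among 43 DNA replication genes they were 58.14% and 18.6%. The promoter of Top2a (RefSeq, GRCm38.p6, chr11:99024140-99024439, minus strand) is shown because it held 6 CCAAT boxes, the most found in a gene of the list, printed in capitals on either strand. It also held 4 cell cycle homology matches, which are not marked.
Top2a: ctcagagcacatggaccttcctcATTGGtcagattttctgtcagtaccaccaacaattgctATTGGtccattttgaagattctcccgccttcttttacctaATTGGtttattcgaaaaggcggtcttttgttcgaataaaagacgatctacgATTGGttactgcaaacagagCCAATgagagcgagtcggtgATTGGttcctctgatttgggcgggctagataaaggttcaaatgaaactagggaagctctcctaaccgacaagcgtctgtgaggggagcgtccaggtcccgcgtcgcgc

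Cytosolic ribosomal protein genes had small differences, with 73 of 75 above 0 and a median of 0.31. Without overlap 34 of them were higher, against 20.1% of all genes tested. By limma 0 rose and 0 fell, while DESeq2 called 2 rising, edgeR 0 and the limma fit of the 6 libraries alone 11. At an unadjusted p under 0.05 by limma 16 of the 75 were higher, against 1491 of all 15464 genes tested. Translation factors had a median near that of all genes, with 1 of 41 rising and 1 falling. Of the 30 G1 cyclins, E2F factors and cell cycle exit genes 0 rose and 1 fell. Ccnd2, the D-type cyclin of granule neuron precursors, had 2618, 1849 and 3248 at P1 and 5343, 4759 and 6482 at P7 without overlap, but did not pass (1.13 ± 0.39, adjusted p = 0.101). Mycn, a target of hedgehog signalling in these cells, had 289, 129 and 401 against 779, 691 and 860 and did not pass either (adjusted p = 0.352).

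Among metabolic genes most calls were declines. Of 44 genes of fatty acid synthesis and oxidation 8 fell and 3 rose, 33 were below 0, and the median was -0.44. The falling count was 5 to 11 with 1 of the 6 libraries left out, and moved by over 1.5 times without P1 replicate 1, P1 replicate 2 or P7 replicate 2. Scd2, the stearoyl-CoA desaturase of brain, had 16249, 14348 and 11042 at P1 and 6128, 3939 and 6327 at P7 (-1.36 ± 0.20, adjusted p = 0.000974). Fads2, the first desaturase of polyunsaturated fatty acids, had 4197, 4259 and 3028 against 1658, 955 and 1509 (-1.50 ± 0.21, adjusted p = 0.000671). Srebf1, a transcription factor of lipogenic genes, had 1712, 1488 and 1383 against 667, 516 and 648, and Cpt1a, which brings fatty acids into mitochondria, 1449, 940 and 1087 against 498, 525 and 491 (adjusted p = 0.00212 and 0.00537). Fabp7, the brain lipid-binding protein of radial glia, had 15797, 16664 and 15145 against 7418, 3433 and 6715 (-1.51 ± 0.26, adjusted p = 0.00262). Elovl7, a fatty acid elongase, rose from 29.5, 52.2 and 33.3 to 358, 639 and 376 (3.53 ± 0.36, adjusted p = 6.78e-05), and Acsl1, an acyl-CoA synthetase, from 233, 171 and 170 to 355, 491 and 455. Srebf1 and Cpt1a were named after their values were seen.

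The first enzymes of serine synthesis fell. Psat1, its aminotransferase (chromosome 19, 15904678 to 15947337), had 2975, 3439 and 2915 normalized counts at P1 and 1137, 938 and 971 at P7 (-1.61 ± 0.18, adjusted p = 0.000111), and Phgdh, the dehydrogenase before it, had 2672, 2258 and 2249 against 1201, 601 and 1024 (-1.40 ± 0.24, adjusted p = 0.00221). They were among 5 of 28 genes of serine, glycine and one-carbon metabolism that fell, and 0 rose. Aldh1l1, whose promoter drives the reporter, was another, at -1.80 on the log2 scale (adjusted p = 0.000465). When 1 of the 6 libraries was left out 3 or 4 fell, 3 without P1 replicates 1, 2 or 3 or P7 replicate 2. In glycolysis 1 of 27 fell, and 4 did without P1 replicate 3. It was Aldoc, the aldolase of astrocytes, with 10561, 10070 and 7823 against 2762, 1171 and 2184 (-2.29 ± 0.25, adjusted p = 9.94e-05). Its means of 20076 at P14 and 56146 at P28 stood above both.

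Of 34 cholesterol synthesis and regulation genes 3 fell and 0 rose, and the count was 1 without P1 replicate 1 or P7 replicate 2. Abca1, which exports cholesterol, had 6377, 5445 and 5335 against 2834, 2678 and 2007 (-1.20 ± 0.18, adjusted p = 0.00101). The 76 nuclear subunits of oxidative phosphorylation had a median of 0.11 with 1 rising. Among HIF targets and regulators 1 of 28 rose and 1 fell, and among genes of the unfolded protein and amino acid stress response 0 of 29 rose and 1 fell, which was Psat1. Of the 10 astrocyte markers, with Aldoc among them, 6 fell and 1 rose, and 3 had a log2 fold change above 0. Their sums were lower at P7, with P7 replicate 2 the lowest library. This library was also the lowest for Scd2, Fads2, Fabp7, Phgdh and Aldoc. The part of the astrocyte share in these declines was not tested.

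Most matrix genes past the test fell. Of 44 proteoglycan, hyaluronan and tenascin genes 12 fell and 1 rose, 31 were below 0, and the median was -0.70. The falling count was 7 to 11 with 1 of the 6 libraries left out, and 7 without P1 replicate 1. Ncan, which encodes neurocan, a chondroitin sulfate proteoglycan of the developing brain (chromosome 8, 70093085 to 70120873), had 71882, 65443 and 53445 normalized counts at P1 and 17324, 8732 and 17450 at P7. All P1 libraries lay far above the P7 libraries, a 4.38-fold difference (-2.19 ± 0.25, adjusted p = 0.000133), and the means were 5525 and 3774 at P14 and P28. Bcan, for brevican, had 6664, 7200 and 5373 against 2471, 1289 and 1822, but means of 4835 at P14 and 6039 at P28. Tnc, for tenascin-C, had 28815, 18674 and 22801 against 8107, 5090 and 8586 (-1.70 ± 0.27, adjusted p = 0.00127). A rise was found for Tnr, for tenascin-R of the perineuronal matrix, with 436, 514 and 493 against 852, 1047 and 1091 (1.04 ± 0.20, adjusted p = 0.00412). Bcan and Tnc were named after their values were seen.

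Other matrix genes of glia fell as well. Cspg5, for the proteoglycan neuroglycan C, had 1243, 1275 and 842 against 279, 154 and 185 (-2.46 ± 0.30, adjusted p = 0.00019). Sparcl1, for the secreted protein hevin, had 79601, 82802 and 81605 at P1 and 41195, 25696 and 40282 at P7, with means of 138450 and 236953 at P14 and P28 (-1.22 ± 0.19, adjusted p = 0.00143). Spon1, for F-spondin and named after its values were seen, had 3330, 2584 and 2725 against 1173, 688 and 1089 (-1.58 ± 0.20, adjusted p = 0.000316).

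Receptors and basement membrane genes moved in the same direction, with 7 of 36 laminin, nidogen and integrin genes falling and 0 rising, and 5 or 6 with 1 of the 6 libraries left out. Itgb5, an integrin subunit that pairs with alpha v, had 1012, 1080 and 747 against 202, 208 and 181 (-2.24 ± 0.28, adjusted p = 0.000244), and its partner Itgav fell by 0.79 on the log2 scale. Lamb2, a laminin chain of basement membranes, had 1505, 1315 and 1003 against 334, 512 and 399 (-1.62 ± 0.23, adjusted p = 0.000678), and Dag1, the dystroglycan receptor with which astrocyte endfeet hold laminin, 7052, 7689 and 6257 against 3440, 2693 and 3499 (-1.13 ± 0.19, adjusted p = 0.00219). Of 40 collagen genes 2 rose and 1 fell. With 1 of the 6 libraries left out 0 to 2 rose, fewer by over 1.5 times without any of them but P1 replicate 1, and 0 fell without P1 replicate 2, P7 replicate 1 or P7 replicate 2. Meningeal fibroblast markers, many of which are matrix genes, summed to 13038 to 44272 at P1 and 11933 to 24233 at P7 and overlapped between ages. P1 replicate 2, the highest of them, was also the highest P1 library of Bcan, Cspg5, Sparcl1, Itgb5 and Dag1, and not of Ncan, Tnc, Spon1 or Lamb2. The part of meningeal RNA in these declines was not tested.

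Voltage-gated channel genes that passed were mostly higher at P7. Of 55 genes 12 rose and 5 fell, with a median of 0.20, and 8 to 12 rose and 2 or 3 fell with 1 of the 6 libraries left out. Kcna1, the Kv1.1 potassium channel of axons (chromosome 6, 126640397 to 126646384), had 43.7, 78.6 and 78.8 normalized counts at P1 and 249, 415 and 286 at P7 (2.24 ± 0.28, adjusted p = 0.000222), and a mean of 3769 at P14. Its relative Kcna2 had 818, 1100 and 1012 against 3982, 1950 and 4192 (1.72 ± 0.26, adjusted p = 0.00109). Calcium channel genes were among both the rising and the falling genes of the list. The examples here are of those that rose. Cacna1e had 576, 883 and 624 against 1423, 2641 and 1707 (1.44 ± 0.26, adjusted p = 0.00303), and Cacna1b, of presynaptic N-type channels, 172, 157 and 266 against 455, 737 and 637. Scn8a, the Nav1.6 sodium channel, had 556, 382 and 819 against 1358, 1444 and 1553 (1.38 ± 0.25, adjusted p = 0.0031).

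Of the channel genes that fell, Kcnd2, a potassium channel of the Kv4 family, had 1499, 1441 and 1219 against 451, 505 and 388 (-1.63 ± 0.21, adjusted p = 0.000335). The count of 5 falling genes moved by over 1.5 times without each of the 6 libraries. Cacna1b and Scn8a were named after their values were seen.

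A few genes of metal binding and glutathione defence fell. Mt1, a metallothionein (chromosome 8, 94179082 to 94180327), had 994, 2204 and 1013 normalized counts at P1 and 389, 169 and 256 at P7 (-2.34 ± 0.33, adjusted p = 0.00066). Its close relative Mt2 had 1961, 4848 and 1846 against 645, 123 and 253 (-3.25 ± 0.47, adjusted p = 0.000762). P1 replicate 2 was the highest library and P7 replicate 2 the lowest of both, and the change of Mt2 went to -3.87 without P7 replicate 1. The P7 levels were the lowest of the 4 ages, since Mt1 had means of 2355 at P14 and 5676 at P28 and Mt2 of 8738 and 15230. They were among 3 of 25 metallothionein and zinc transporter genes that fell, with 0 rising and a median of -0.21.

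Metallothionein genes are induced by zinc through metal response elements, which were searched as TGCACNC or TGCGCNC on both strands and stood in 25.62% of all 27025 promoters. The Mt1 window (RefSeq, GRCm38.p6, chr8:94178839-94179138, plus strand) held 3 and the Mt2 window (chr8:94172368-94172667, plus strand) held 4, shown in capitals because these genes fell together and lie close to each other on the chromosome.
Mt1: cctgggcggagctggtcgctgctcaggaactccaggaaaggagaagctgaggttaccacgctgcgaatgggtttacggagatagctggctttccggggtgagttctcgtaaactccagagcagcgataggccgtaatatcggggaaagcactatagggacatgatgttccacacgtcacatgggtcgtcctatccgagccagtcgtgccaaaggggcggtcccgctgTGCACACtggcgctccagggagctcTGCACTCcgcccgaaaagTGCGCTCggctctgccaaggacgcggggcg
Mt2: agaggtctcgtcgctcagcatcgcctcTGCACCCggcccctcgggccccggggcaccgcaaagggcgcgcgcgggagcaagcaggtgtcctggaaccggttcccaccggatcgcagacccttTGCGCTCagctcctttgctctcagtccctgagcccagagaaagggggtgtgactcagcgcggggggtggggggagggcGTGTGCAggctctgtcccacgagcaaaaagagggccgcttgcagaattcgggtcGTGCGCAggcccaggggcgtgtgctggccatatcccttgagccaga

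Of 42 glutathione and oxidative defence genes 5 fell and 0 rose, with a median of -0.24. Gstm1, a glutathione transferase (chromosome 3, 108012255 to 108017973), had 12317, 14083 and 10015 at P1 and 2196, 1343 and 2471 at P7, a 6.06-fold difference (-2.63 ± 0.23, adjusted p = 2.13e-05). Reads of its near relatives could be shared, as the counting of such reads is not given, and Gstm5 fell by 1.17 on the log2 scale. Mgst1, the microsomal enzyme, had 433, 573 and 441 against 181, 107 and 152, and Txnip, which binds thioredoxin and limits glucose uptake, 815, 1359 and 616 against 322, 325 and 215 (-1.64 ± 0.33, adjusted p = 0.00605). Gstm1 later had means of 9092 at P14 and 29899 at P28.

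Lysosomal genes fell in 8 of 57 and rose in 0, with 43 below 0 and a median of -0.38, and 4 to 7 fell with 1 of the 6 libraries left out, fewer by over 1.5 times without any of them but P1 replicate 3. Psap, the precursor of the saposins that help to degrade sphingolipids, had 4438, 4608 and 3230 against 1949, 1887 and 2161 (-1.02 ± 0.15, adjusted p = 0.000937), and Lamp1, of the lysosomal membrane, 13818, 15943 and 12524 against 8214, 6853 and 7866 (-0.88 ± 0.15, adjusted p = 0.00219). Gaa, which degrades glycogen in lysosomes, had 1149, 1232 and 776 against 351, 328 and 481, and Gm2a, the activator of ganglioside breakdown, 1477, 2018 and 1091 against 717, 487 and 636. Of both Psap and Lamp1 the P7 mean was the lowest of the 4 ages, with 5995 at P14 and 11613 at P28 for Psap. Of 40 interferon response and MHC class I genes 0 rose and 0 fell by limma, against 1 and 2 at an unadjusted p under 0.05, 0 and 1 by DESeq2 and 0 and 0 by edgeR. The limma fit of the 6 libraries alone called 1 rising and 1 falling gene.

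**Figure D5:**
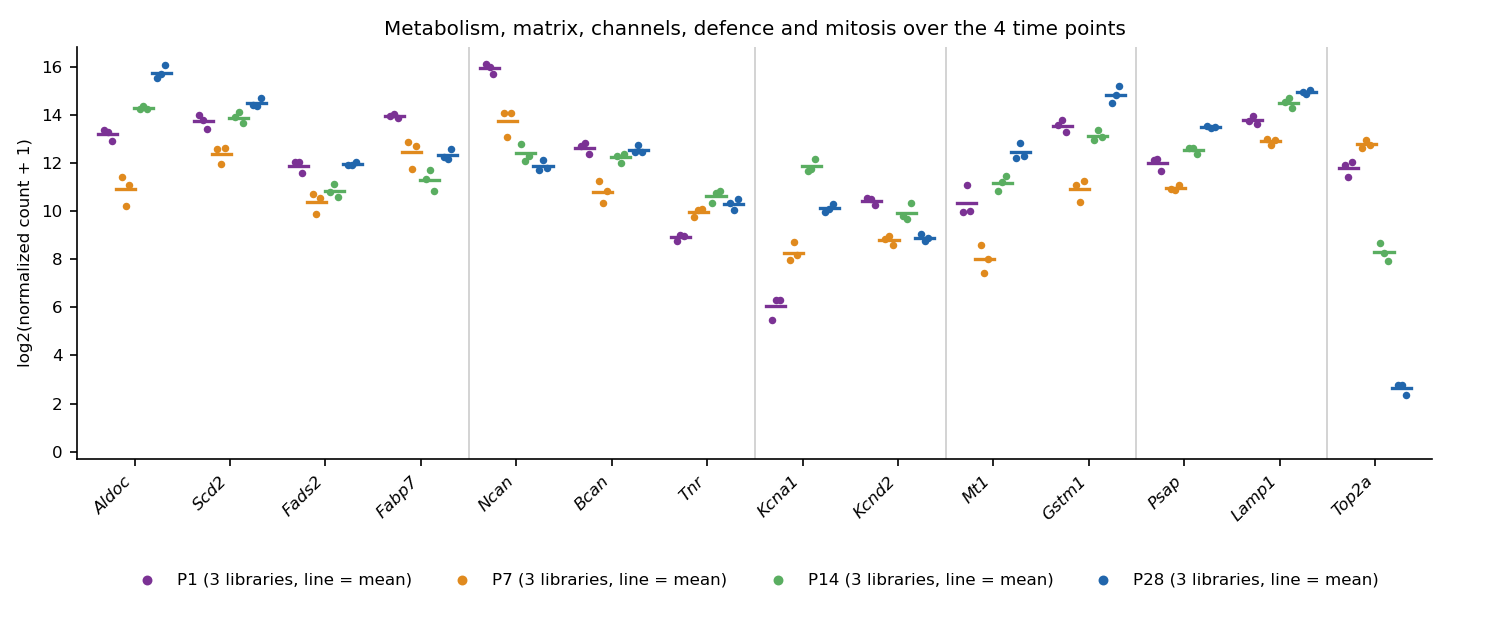
Log2(normalized count + 1) of genes of metabolism, matrix, channels, metal and glutathione defence, lysosomes and mitosis in the 3 libraries of each of the 4 ages (points, line at the mean). Aldoc, Scd2, Mt1, Gstm1, Psap and Lamp1 were lowest at P7, the mean of Ncan was lower at each later age, Kcna1 was highest at P14 and Top2a at P7.

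Motile cilia genes had the lowest median of the process lists, -0.99, with 59 of 64 below 0. Without overlap 36 of them were lower, against 18.2% of all genes tested. The test passed 5 falling genes, and 0 to 2 with 1 of the 6 libraries left out, whichever it was. Adding sex as a term left 1, and a fit of the 6 libraries alone 26. With sex as a term the median was -0.48 and no longer the lowest, since that of the fetal growth genes was -1.08. Foxj1, the factor that commits cells to make motile cilia, fell by 2.00, but its adjusted p was 0.0516 to 0.212 without any of the 6 libraries, P14 replicate 2 or P28 replicate 1. Ependymal markers, with Foxj1 among them, summed to 1106 to 2846 at P1 and 709 to 988 at P7, none of them at 0. Choroid plexus markers, of cells that also bear cilia, rose in 6 of 15, and in 1 to 3 with 1 of the 6 libraries left out, whichever it was. They were higher without overlap in 12, against 20.1% of all genes tested, with Prr32 at 0 in all P1 libraries. The part of either cell type was not tested.

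Activity-dependent and clock genes had few calls. Of 27 immediate early genes 4 fell and 1 rose. When 1 of the 6 libraries was left out 1 to 3 fell, fewer by over 1.5 times in each of these fits but the one without P1 replicate 3, where 2 rose. With sex as a term 2 fell and 2 rose. Fos had 9962, 9491 and 7211 at P1 and 4735, 4044 and 4742 at P7 (-0.97 ± 0.16, adjusted p = 0.00179), while Ier5 had 72.6, 81.5 and 101 against 355, 325 and 299 (1.94 ± 0.37, adjusted p = 0.00492). Of 19 clock genes 2 fell and 1 rose, and the falling count was 1 without P1 replicates 1 or 2 or P7 replicates 2 or 3. Per1, a clock gene also induced by stimulation, had 1180, 2223 and 1585 against 540, 403 and 389 (-1.87 ± 0.37, adjusted p = 0.00606, and 0.057 with sex as a term).

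Genes in none of the lists also changed. Of those that fell, Vit, for the matrix protein vitrin, had 720, 1130 and 493 at P1 and 52.5, 20.9 and 45 at P7 (-4.29 ± 0.51, adjusted p = 0.000158). Shisa3, whose product restrains Wnt and FGF receptors in the secretory pathway, had 590, 1660 and 768 against 39.8, 26.2 and 44.2 (-4.63 ± 0.91, adjusted p = 0.00551). Smoc1, a secreted modulator of BMP signalling, had 2680, 2474 and 2848 against 378, 164 and 320, and Hs3st3b1, a heparan sulfate sulfotransferase, 542, 820 and 515 against 61.3, 31.4 and 72.1. Slc14a2, a urea transporter, had 1542, 845 and 667 against 100, 70.7 and 104 (-3.39 ± 0.62, adjusted p = 0.00377). P7 replicate 2 was the lowest library for each of these genes.

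Of those that rose, Htr2c, the serotonin receptor abundant in choroid plexus and present in neurons, had 6.15, 13.6 and 18.9 against 357, 695 and 335 (5.10 ± 0.92, adjusted p = 0.00322). Its P7 order, with replicate 2 highest, was that of the choroid plexus sums. Mndal, an interferon-inducible gene of the p200 family, had 8, 15 and 31.8 against 358, 611 and 365 and later means of 147 and 27.6 (4.69 ± 0.65, adjusted p = 0.000487). P2ry12, the purinergic receptor of microglia, was the 1 of 12 microglia and macrophage markers that rose, with 76.9, 115 and 78.8 against 322, 217 and 191 (1.41 ± 0.28, adjusted p = 0.00598). The sums of those markers overlapped, at 808 to 2380 at P1 and 1718 to 2411 at P7.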

How the data were processed

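RNA of GFP-sorted cerebellar cells was sequenced in 12 libraries, with 3 for every age from P1 to P28. The authors made libraries from total RNA with the Trio RNA-Seq system and sequenced them from both ends, used STAR for alignment to mm10, GenomicAlignments and GenomicFeatures for counting on UCSC transcripts, and DESeq2 for normalization, and the submitters' processing notes give FastQC 0.11.7, MultiQC 1.11, STAR 2.5.0a and DESeq2 1.30.1. The use of strand and the treatment of reads shared by overlapping or similar genes are not given in the sources used here. The deposited values are a signal, the count of a gene divided by 1 size factor per library, and division by the smallest value of a library gave whole reads, within 0.01, for 100% of them. All columns were matched through the labels, 0 were left over, and their names carry P28 whatever the age, so the ages rest on the labels. Depth was 6399499 to 14733985 reads on genes. Floors and counting intervals (95%) cover counting error only.

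Genes that reached a value of 10 in 3 or more libraries were tested with limma 3.58.1 (R 4.3.3) on log2(value + 1), with 1 mean per age, all 12 libraries in 1 fit, which share 1 estimate of the spread, and a variance trend. Fold changes are on this scale, which understates those of low genes. "Rose" and "fell" stand for an adjusted p under 0.05. Entries with 27 symbols turned to dates and 2 repeated symbols were kept out of the lists. The procedure was tested on simulated data.

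The members, lists and tests were chosen with earlier results of these data known. Named from each list were its 2 most abundant members and up to 3 rising and 3 falling ones with the largest change among those past the test without overlap. Of genes in no list, the 12 largest changes each way with a mean of at least 100 at the higher age were eligible. Outside this rule, and chosen after their values were seen, are the genes said to be so and Dner, Glis3, Gstm5, Itgav, Maml2, Sox6 and Sox9, given by their fold change alone. Alternatives were edgeR 4.0.16 and DESeq2 1.42.0 on the recovered reads, other scalings, pseudocounts and filters, the 6 libraries alone, the replicate number as a block, and each library left out. Sex as a term and P7 replicate 2 as the only P7 library were added after the data were seen. Promoters and gene coordinates are on GRCm38, the build of mm10, the promoters from RefSeq. No list was tested as a set. The result of 1 single gene is not reported here.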

Additional observations from a re-analysis of the deposited data

How the results depend on the processing

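Against 536 rising and 655 falling genes, and 205 genes of the process lists past the test, some alternatives moved the counts by over 1.5 times. The 6 libraries alone called 1349 and 1471, with 429 of the lists, DESeq2 called 843 rising genes, and an unadjusted p under 0.05 with a log2 fold change over 0.75 called 1073 and 1125. P7 replicate 2 as the only P7 library, an alternative added after the data were seen, called 137 and 301, with 82 of the lists, and assumes that this lone library varies like the others. With each of the 12 libraries left out the counts were 276 to 709 rising, 363 to 827 falling and 123 to 259 of the lists, lowest without a P1 or P7 library and highest without a P28 library. Library totals, TMM, edgeR, other pseudocounts and filters, and sex as a term kept all 3 counts within 1.5 times, and library totals gave 609 rising and 585 falling genes with a median log2 fold change of all genes of 0.095. With a replicate block 536 rose and 627 fell, and 203 of the lists passed. Deviations of same-numbered P1 and P7 libraries correlated at 0.0413, 0.139 and 0.0660, and those of other pairs at -0.105 to 0.0536. For each P1 replicate the same-numbered P7 library had the highest value, while P7 replicate 1 correlated best with P1 replicate 3. The labels do not say whether the numbers mark pairs, so the main fit used none. A shared origin of same-numbered libraries was not tested. The log2 fold change of Igf2, which did not pass, was -0.95 to 0.0759 with 1 library left out, above 0 only without P1 replicate 2. Depth limits the low genes, since 3 reads of P7 replicate 2 equal a value of 3.93.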
